A study of Mus musculus with 42 samples.

Results

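The cold-inducible RNA-binding genes are Cirbp and Rbm3. Both members were chosen by name, with earlier results of these data known. These are 2 of the 37907 Ensembl IDs with expression values. Adult male mice of the C57/BL6 strain, all wild-type, gave the tissue, and RNA-seq was run on 4 nuclei of the hypothalamus excised with a laser from cryosections. These were the paraventricular nucleus (PVN), arcuate nucleus (ARC), dorsomedial hypothalamus (DMH) and ventromedial hypothalamus (VMH). One set of mice was fed ad libitum and the other was fasted for 24 hours before the brain was taken, with no other allele or agent in either set. The fed groups held 6 PVN, 5 ARC, 5 DMH and 6 VMH libraries, and the fasted groups held 5 PVN, 5 ARC, 4 DMH and 6 VMH libraries. A captured nucleus holds neurons and glia together, so that more RNA per cell and more cells of a type that uses the gene cannot be told apart.

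Cirbp and Rbm3 encode small, closely related proteins with a single RNA-recognition motif followed by a glycine-rich tail. Both are known for rising in mammalian cells when temperature falls a little below normal, the opposite of heat shock genes, and both bind mRNAs and affect their stability, polyadenylation or translation. Rbm3 has been linked to the maintenance of synapses in cooled brain, and Cirbp to the cycling of clock transcripts. Body temperature was not among the measurements used here.

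Cirbp (ENSMUSG00000045193) lies on the plus strand of chromosome 10 at chr10:80165985-80172786 (GRCm38), with 2604 bases of exon that overlap no other annotated gene. Rbm3 (ENSMUSG00000031167) lies on the minus strand of the X chromosome at chrX:8138975-8145880, with 4698 bases of exon, of which 2.0% overlap the opposite-strand gene Rbm3os. The share of 50-base stretches that recur in transcripts of other genes was 0% for Cirbp and 9.71% for Rbm3, most of it the pseudogene Rbm3-ps (6.27%), so a small part of the Rbm3 reads could be split or lost between copies. The longest run of bases that transcripts of Cirbp and Rbm3 had in common was 11 (GCTATGAATGG is one of 3 such runs), so that neither gene can take up reads of the other. Rbm3os was low throughout, with group means between 1.54 and 3.29 RPKM (reads per kilobase of exon, scaled to the reads of the library).

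RefSeq gives 2 promoter windows for Cirbp, each from 250 bases before a start site to 50 bases after it. The first is shown because it holds the mild-cold response element, an element known from work on cooled cells to which the factor Sp1 binds; capitals mark it.

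Cirbp promoter, chr10:80167589-80167888, plus strand, GRCm38.p6: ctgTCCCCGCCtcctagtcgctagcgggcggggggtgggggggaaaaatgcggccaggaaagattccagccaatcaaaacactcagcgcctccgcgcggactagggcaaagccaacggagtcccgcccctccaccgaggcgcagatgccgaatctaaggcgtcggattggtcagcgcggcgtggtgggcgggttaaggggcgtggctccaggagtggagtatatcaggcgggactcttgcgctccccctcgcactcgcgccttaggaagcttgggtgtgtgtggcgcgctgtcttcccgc

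The element (TCCCCGCC, searched on both strands) began 247 bases before the start site, at position -247. It overlapped none of the other motifs searched and was present in 5.38% of 32851 promoter windows of the same length. The window also held 2 CCAAT boxes, at positions -181 and -85, and 3 GC boxes (GGGCGG), which were present in 37.4% and 35.7% of promoter windows. The second window (chr10:80167921-80168220) held 4 GC boxes, no CCAAT box and no mild-cold response element. Neither held the heat shock motif GAANNTTC, which was found in 7.86% of promoter windows. These are matches of letters, and binding was not measured. Rbm3 was not in the promoter table.

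The libraries had an estimated 1.33 to 13.2 M reads (mean 4.57 M). In the DMH, depth differed with the state, at 3.91 ± 0.862 M reads in fed (SD, n = 5) and 7.38 ± 4.0 M reads in fasted mice (n = 4; two-sided exact permutation p = 0.0476), whereas the same test gave p = 0.540 for the ARC, 0.511 for the VMH and 0.827 for the PVN. All 11 marker genes of the 4 nuclei, such as Agrp for the ARC, Nr5a1 for the VMH and Oxt for the PVN, had their highest mean in the nucleus they mark. The libraries fell into 3 batches, inferred from the values, whose means had been made equal in the deposited table. Whether that step kept the differences between groups is not stated in the sources used here, and batch 1 held 1 fed and 0 fasted DMH libraries.

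Both genes were well above the floor of the table. Cirbp averaged 20.8 RPKM over the 42 libraries and Rbm3 averaged 9.40 RPKM, where a gene with no reads would be listed at 0.4204 and 0.233 RPKM. An estimated 38.4 to 753 reads lay behind a Cirbp value (median 222) and 34.6 to 660 reads behind an Rbm3 value (median 179). Per kilobase, the level of Cirbp exceeded that of Rbm3 in 39 of 42 libraries, with a median ratio of 2.11 and a range from 0.590 to 6.04.

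**Figure D1:**
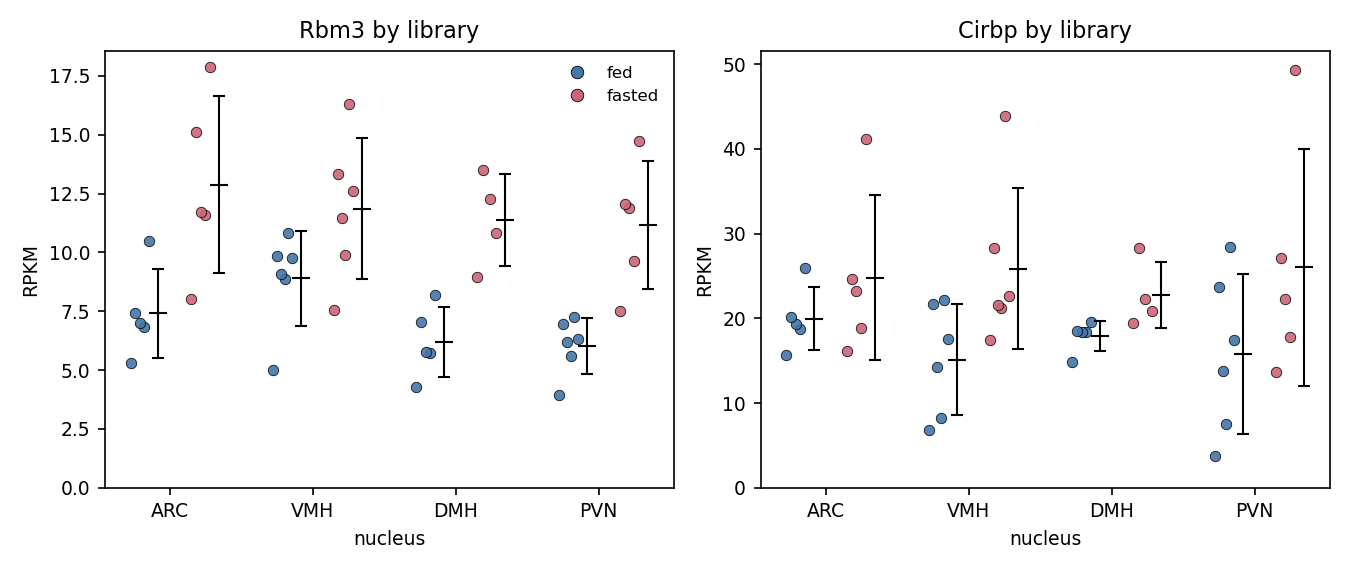
RPKM of Rbm3 (left) and Cirbp (right) in each of the 42 libraries, by nucleus and nutritional state. Each point is a library, and the bar beside each group is the mean with its SD; the fasted and fed points of Rbm3 are separate in the DMH and PVN, while those of Cirbp overlap in all 4 nuclei.

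Rbm3 was higher in fasted than in fed mice in each nucleus, by a ratio of group means between 1.33 and 1.85. In the PVN, the 6 fed libraries had a lowest Rbm3 level of 3.93, a median of 6.24 and a highest of 7.24 RPKM. The 5 fasted PVN libraries had 7.51, 9.63, 11.9, 12.1 and 14.7 RPKM. All 5 fasted libraries were thus above all 6 fed ones, a separation that 0.22% of the 33579 genes tested showed in this direction. The ratio of the means was 1.85, and the difference was 0.78 on the log2(RPKM + 1) scale (SE 0.20, n = 6 and 5).

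In the DMH, Rbm3 stood at 4.27, 5.74, 5.78, 7.05 and 8.21 RPKM in the fed libraries. It stood at 8.96, 10.8, 12.3 and 13.5 RPKM in the fasted libraries. The groups did not overlap here either, which 0.685% of genes showed in this direction, and the difference was 0.79 log2 units (SE 0.22; ratio of means 1.84). Fasted DMH libraries were deeper as well, and with depth as a covariate the DMH difference was 0.74 log2 units and the average over nuclei 0.64 (limma, adjusted p = 0.474 and 0.00121).

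In the ARC, the fed libraries had Rbm3 levels of 5.30, 6.85, 7.0, 7.42 and 10.5 RPKM. The fasted libraries had 8.04, 11.6, 11.7, 15.1 and 17.9 RPKM. A single fasted library fell below the highest fed library and 4 of 5 lay above all fed libraries. Every fasted library was above every fed library for 0.408% of genes, a full separation that Rbm3 did not show here. The share of genes with 4 of 5 above was not computed. The difference was 0.71 log2 units (SE 0.20; ratio of means 1.74).

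The VMH had the smallest difference in Rbm3, 0.37 log2 units (SE 0.19; ratio of means 1.33). Its 6 fed libraries had a lowest level of 5.01, a median of 9.44 and a highest of 10.8 RPKM, and its 6 fasted libraries 7.54, 12.1 and 16.3 RPKM. Of the fasted libraries, 4 of 6 exceeded the highest fed one. Full separation, which Rbm3 did not show here either, was seen in 0.131% of genes. The share of genes with 4 of 6 above was not computed.

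Averaged over the 4 nuclei, Rbm3 rose with fasting by 0.66 log2 units (SE 0.10, 95% confidence interval 0.46 to 0.87; limma, adjusted p = 0.000313 over all genes). This was the 15th smallest p of 33579 genes, where 0.214% of genes rose at an adjusted p under 0.1, the threshold used for every limma result here, while permutation tests were held to 0.05. With batch added as a term of the fit, the average was 0.67 (adjusted p = 0.000652). The average treats the nuclei as independent although they were taken from the same brains. If the 4 estimates were fully dependent, the SE would be 0.20, the interval 0.25 to 1.07 and the adjusted p = 1, with 1 gene of the table left past the threshold.

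In single nuclei, Rbm3 did not pass the threshold over all genes (limma, adjusted p = 0.203 for the PVN, 0.268 for the DMH, 0.296 for the ARC and 0.617 for the VMH). The share of genes that rose past it was 0.0536% for the PVN, 0.0238% for the DMH, 0.0387% for the ARC and 0.0715% for the VMH. Leaving out fasted PVN replicate 5, the lowest of its group, brought the PVN change past the threshold, at 0.90 log2 units (limma, adjusted p = 0.0857), whereas without fasted PVN replicate 1, the highest, it was 0.68 (adjusted p = 0.628). With the PVN fitted alone the adjusted p was 0.660 (limma). Taken as a single gene, Rbm3 gave a two-sided exact permutation p of 0.00433 for the PVN, 0.0159 for the DMH, 0.0159 for the ARC and 0.0931 for the VMH. Adjusted over the 8 tests of both genes, these were 0.0346, 0.0423, 0.0423 and 0.124 by the exact permutation test. The unadjusted DMH and PVN values are the smallest their group sizes allow. Both genes were chosen with earlier results of these data known, and an adjustment over 8 tests does not allow for that choice.

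Within each batch, the Rbm3 difference kept its sign wherever it could be computed. In the 3 batches it was 1.09, 0.62 and 0.83 log2 units for the PVN, 1.58, 0.39 and 0.59 for the ARC, and 0.10, 0.04 and 0.98 for the VMH. In the DMH it was 0.64 in batch 2 and 0.91 in batch 3, as batch 1 held no fasted DMH library. Each group held at most 2 libraries in a batch. In batch 1 the fed and fasted ARC, the fasted PVN and the fed DMH held 1. The VMH values in batches 1 and 2 were smaller than their SEs (0.32 and 0.19). The average over nuclei was 0.42 in batch 2 (limma, adjusted p = 0.297) and 0.83 in batch 3 (adjusted p = 0.316), so that it did not pass the threshold over all genes in either batch alone.

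**Figure D2:**
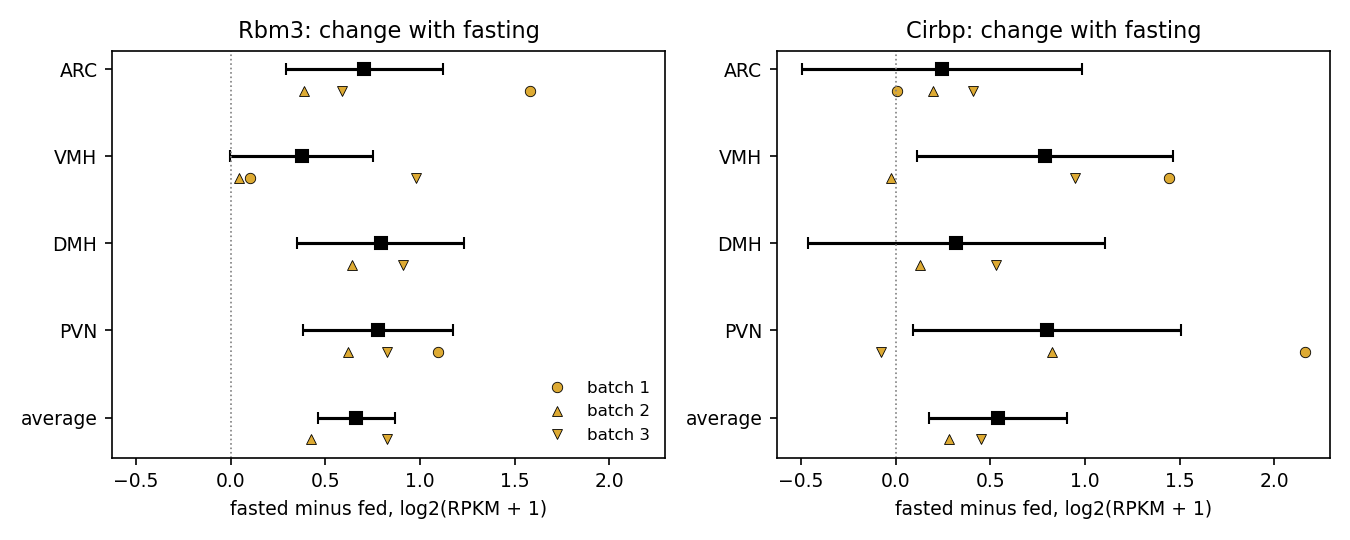
Fasted minus fed difference of Rbm3 (left) and Cirbp (right) in log2(RPKM + 1), in each nucleus and averaged over the 4 nuclei. Squares with bars are the fitted difference and its 95% confidence interval over all batches, and the smaller symbols are the differences within each batch; the symbols of Rbm3 all lie above 0, and those of Cirbp reach from -0.08 to 2.16.

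Cirbp was also higher on average in fasted mice in each nucleus, but it varied more between libraries of a group, and its differences did not pass the threshold over all genes (limma). In the VMH, the 6 fed libraries had a lowest Cirbp level of 6.79, a median of 15.9 and a highest of 22.2 RPKM, and the 6 fasted libraries had 17.5, 22.1 and 43.9 RPKM. All 6 fasted libraries lay above the fed mean, but 3 of 6 exceeded the highest fed library. The difference was 0.79 log2 units (SE 0.33; limma, adjusted p = 0.553; ratio of means 1.71).

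In the PVN, Cirbp ranged from 3.72 to 28.4 RPKM over the 6 fed libraries, with a median of 15.6. The 5 fasted libraries had 13.6, 17.8, 22.2, 27.1 and 49.3 RPKM. The ranges overlapped over most of their length, with 1 of 5 fasted libraries above the highest fed one. The difference was 0.80 log2 units, with a wide interval of 0.09 to 1.51 (adjusted p = 0.869, limma). This interval takes its spread from all 8 groups. With the PVN fitted alone, the SE was 0.51 in place of 0.35 (limma, unadjusted p = 0.151). The difference rested in part on single libraries, at 0.48 without fed replicate 3, 1.01 without fed replicate 4 and 0.47 with library weights.

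In the DMH, Cirbp had fed levels of 14.9, 18.3, 18.3, 18.5 and 19.6 RPKM and fasted levels of 19.5, 20.9, 22.2 and 28.4 RPKM. The groups met at their edges, as 3 of 4 fasted libraries were above all fed ones. The difference was 0.32 log2 units (SE 0.39 and adjusted p = 1, limma). This SE takes its spread from all 8 groups. With the DMH fitted alone it was 0.12 (limma, unadjusted p = 0.0293), and the difference still did not pass the threshold over all genes.

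In the ARC, Cirbp had fed levels of 15.6, 18.7, 19.4, 20.1 and 25.9 RPKM and fasted levels of 16.2, 18.9, 23.2, 24.6 and 41.1 RPKM. Apart from the fasted library at 41.1 RPKM, both groups covered much the same range. The difference was 0.25 log2 units (SE 0.36; adjusted p = 1, limma), and 0.05 without that library, fasted replicate 3.

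Averaged over nuclei, the Cirbp difference was 0.54 log2 units (95% confidence interval 0.17 to 0.90; limma, adjusted p = 0.306). Its exact permutation p was 0.405, 0.0411, 0.0317 and 0.177 in the ARC, VMH, DMH and PVN, and 0.405, 0.0658, 0.0635 and 0.203 when adjusted over the 8 tests, none of them under 0.05. Within batches, the difference ranged from -0.02 to 1.45 in the VMH and from -0.08 to 2.16 in the PVN. Both negative values were smaller than their SEs (0.73 and 0.34), each from 2 fed and 2 fasted libraries. A change of sign between batches is thus not shown, and the value of 2.16 rests on 1 fasted library.

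Cirbp varied more within groups than most genes of its level. The SD of its log2 values within groups was 0.58, against a median of 0.28 for 1388 genes of like mean level, and 97.7% of those genes had a lower SD. For Rbm3 the SD was 0.33, against a median of 0.36 for 1988 genes of like level, with 36.8% of them lower. The spread of Cirbp was widest in the fed PVN (SD 0.99) and narrowest in the fed DMH (SD 0.14), where the estimated reads alone would give 0.15 and 0.11. Amplification before sequencing can add to this spread, and its part was not tested.

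The fasting difference of the 2 genes did not differ between nuclei past the threshold. For the interaction of state and nucleus, limma gave an unadjusted p = 0.388 for Rbm3 and 0.563 for Cirbp, both 1 after adjustment, and 0.00596% of genes passed. The intervals were wide. The Rbm3 difference in the VMH was 0.40 log2 units below that in the PVN, with a 95% interval for VMH minus PVN of -0.95 to 0.15, which includes both no difference and one larger than the VMH value itself.

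In fed mice, the mean Rbm3 level was highest in the VMH at 8.90 ± 2.02 RPKM (SD, n = 6), followed by the ARC at 7.41 ± 1.89 (n = 5), the DMH at 6.21 ± 1.49 (n = 5) and the PVN at 6.03 ± 1.18 (n = 6). Neighbours in this order did not differ past the threshold, and the widest gap, between VMH and PVN, was 0.48 log2 units (SE 0.19; limma, adjusted p = 0.131). Over the 4 fed groups Rbm3 had an adjusted p = 0.285, where 12.4% of genes passed. Without fed VMH replicate 6, the lowest of its group, this became 0.0754.

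After fasting, the order was ARC (12.9 ± 3.76 RPKM, n = 5), VMH (11.9 ± 3.004, n = 6), DMH (11.4 ± 1.96, n = 4) and PVN (11.2 ± 2.73, n = 5). The largest gap between these groups was 0.18 log2 units (95% interval -0.24 to 0.59), and 11.9% of genes differed among fasted nuclei. The fasted groups of Rbm3 thus lay closer together than the fed groups, and the interaction test above, which bears on this, did not pass the threshold.

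Cirbp had fed means of 19.97 ± 3.76 RPKM for the ARC (n = 5), 17.9 ± 1.79 for the DMH (n = 5), 15.8 ± 9.40 for the PVN (n = 6) and 15.1 ± 6.59 for the VMH (n = 6). Its fasted means were 26.0 ± 13.95 for the PVN (n = 5), 25.8 ± 9.50 for the VMH (n = 6), 24.8 ± 9.73 for the ARC (n = 5) and 22.8 ± 3.89 for the DMH (n = 4). No neighbours in either order differed past the threshold, and the adjusted p over nuclei was 0.723 in fed and 1 in fasted mice (limma).

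Whether the 2 genes responded alike was tested within libraries, since a library's scaling cancels in the difference of Rbm3 and Cirbp. On the log2 scale, the gap of Rbm3 to Cirbp differed between fasted and fed mice by 0.46 for the ARC, 0.47 for the DMH, -0.02 for the PVN and -0.41 for the VMH. The two-sided exact permutation p was 0.190, 0.0952, 0.978 and 0.346, and at least 0.381 when adjusted over the 4 tests. These gaps moved with single libraries, from 0.26 to 0.67 for the ARC (without fasted replicate 1 or 3) and from -0.56 to -0.14 for the VMH (without fed replicate 6 or fasted replicate 2). For the PVN the sign changed as well, from -0.28 to 0.31 with a library left out. No covariation of the 2 genes among libraries of a group passed the test. The correlation of their log2 levels after removal of group means was 0.10 for the ARC (n = 10), -0.19 for the VMH (n = 12), -0.17 for the DMH (n = 9) and 0.16 for the PVN (n = 11), with a permutation p of at least 0.580 for Pearson's r and Spearman's rho of 0.13, -0.03, -0.28 and 0.26 (permutation p of at least 0.449).

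Most heat shock and chaperone genes had lower means in fasted mice, though most of the differences did not pass the threshold. This list held 22 genes, all tested, and their difference with fasting was negative for 22 genes in both the ARC and the PVN, for 21 in the VMH, for 19 in the DMH and for 22 on average over nuclei. The median difference was -0.33, -0.31, -0.19 and -0.31 log2 units in the ARC, VMH, DMH and PVN, and -0.29 on average. Over the 13757 genes with reads in nearly all libraries, the median difference was between -0.01 and 0.01 in each nucleus and on average. Earlier results on chaperones in these libraries were known when the list was drawn up, so its direction is not independent evidence.

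Few of these genes passed the threshold in a single nucleus. Hsp90aa1, the stress-induced form of the cytosolic chaperone HSP90, fell by 0.41 log2 units in the ARC (limma, adjusted p = 0.0361) and by 0.47 in the PVN (adjusted p = 0.00166). Its PVN level was 170.5 to 212.5 RPKM in fed and 125.4 to 146.4 RPKM in fasted libraries, and these ranges did not overlap. Dnaja1, a co-chaperone of HSP70, fell by 0.45 in the PVN (adjusted p = 0.0922), a call lost in 23 of 42 fits that each left out a library. The ARC call of Hsp90aa1 was lost without fasted replicate 1, fed replicate 1 or fed replicate 2 (adjusted p of up to 0.140, limma). With each nucleus fitted alone, all these calls were lost (limma, adjusted p = 0.758 and 0.111 for Hsp90aa1 in the ARC and PVN, and 0.429 for Dnaja1). The shares of genes that fell past the threshold were 0.0179% for the PVN, 0% for the DMH, 0.0596% for the VMH and 0.0179% for the ARC, and 0.182% of genes had all fasted PVN libraries below all fed ones.

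On average over nuclei, 10 of the 22 heat shock genes fell and 0 rose, where 0.286% of all genes fell. The count was 9 to 12 with a library left out and 10 with a batch term, but 0 if the nuclei were fully dependent. They were the HSP90 genes Hsp90aa1 (-0.33, adjusted p = 1.63e-06) and Hsp90ab1, the HSP70 family genes Hspa8 and Hsph1 (-0.42, adjusted p = 0.000542), the mitochondrial chaperonin Hspd1, the HSP70 partners Dnaja1 and Dnajb4, and the HSP90 partners Chordc1, Ahsa1 and Stip1. Among those not past the threshold were Hsf1 (-0.24), the factor that drives heat shock transcription, its relative Hsf2 (-0.09), the small heat shock gene Cryab (-0.42), and the HSP70 partners Dnajb1 (-0.28) and St13 (-0.17). Pseudogenes share much of the sequence of Hsp90aa1 (47.5% of 50-base stretches), Hspd1 (42.1%) and Hspa8 (39.4%), so the levels of these 3 genes are uncertain, while Hsph1 shared none.

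**Figure D3:**
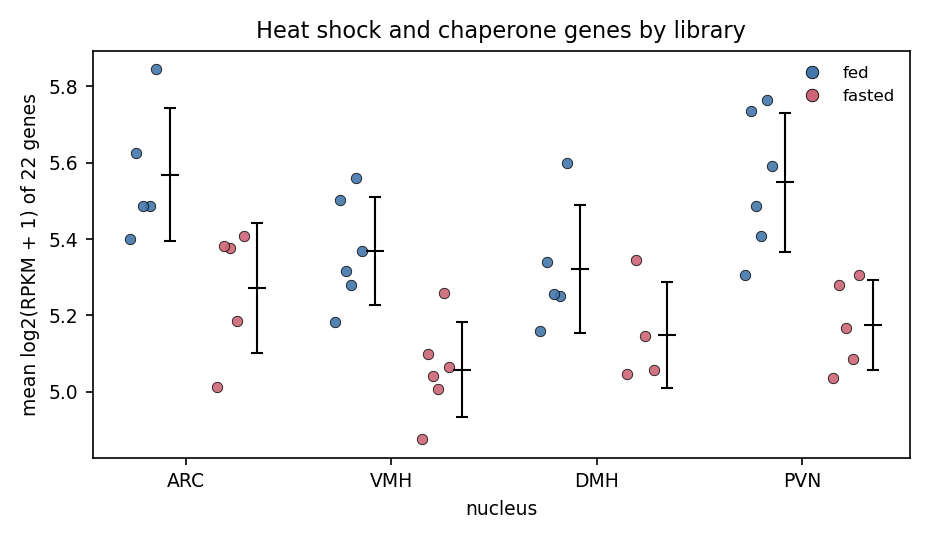
Mean log2(RPKM + 1) of the 22 heat shock and chaperone genes in each library, by nucleus and state, with the mean and SD of each group beside the points. The axis does not start at 0; the group means were 5.57 and 5.27 in fed and fasted ARC, 5.55 and 5.17 in the PVN, 5.37 and 5.06 in the VMH, and 5.32 and 5.15 in the DMH.

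In the PVN, Cirbp was low in the libraries where heat shock genes were high. After removal of the mean of each state, Pearson's r of Cirbp and the heat shock mean was -0.88 over 11 libraries (permutation p = 0.00155) and Spearman's rho was -0.86 (permutation p = 0.00319). Adjusted over 12 such relations of the 2 genes, these were 0.0186 and 0.0383. Without the 2 libraries farthest from the Cirbp median, r was -0.90, without any single library it lay between -0.95 and -0.85, and with depth also removed it was -0.89. Of the 22 genes, 19 had a negative correlation with Cirbp in the PVN, led by Bag3 (-0.89), an HSP70 partner, Chordc1 (-0.83) and Hsph1 (-0.82). The share of all genes with such correlations was not computed. The relation is thus not shown to be particular to heat shock genes. The batches were too small for a value of their own.

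In the other nuclei the relation did not pass the test. For Cirbp and the heat shock mean, r was 0.20 for the DMH (n = 9, permutation p = 0.549), 0.35 for the ARC (n = 10, p = 0.359) and 0.00 for the VMH (n = 12, p = 0.990). Spearman's rho was 0.33, 0.31 and -0.08 (permutation p of at least 0.401). Of the same 22 genes, those negatively correlated with Cirbp numbered 8 (DMH), 3 (ARC) and 11 (VMH). Most genes thus had a positive correlation in the ARC, although r of the heat shock mean did not pass the test there. A count that leans to 1 side can therefore arise without a relation that passes. For Rbm3, r was between -0.29 and 0.06 in the 4 nuclei, with a permutation p of at least 0.434. The difference of the relation between nuclei was not tested.

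**Figure D4:**
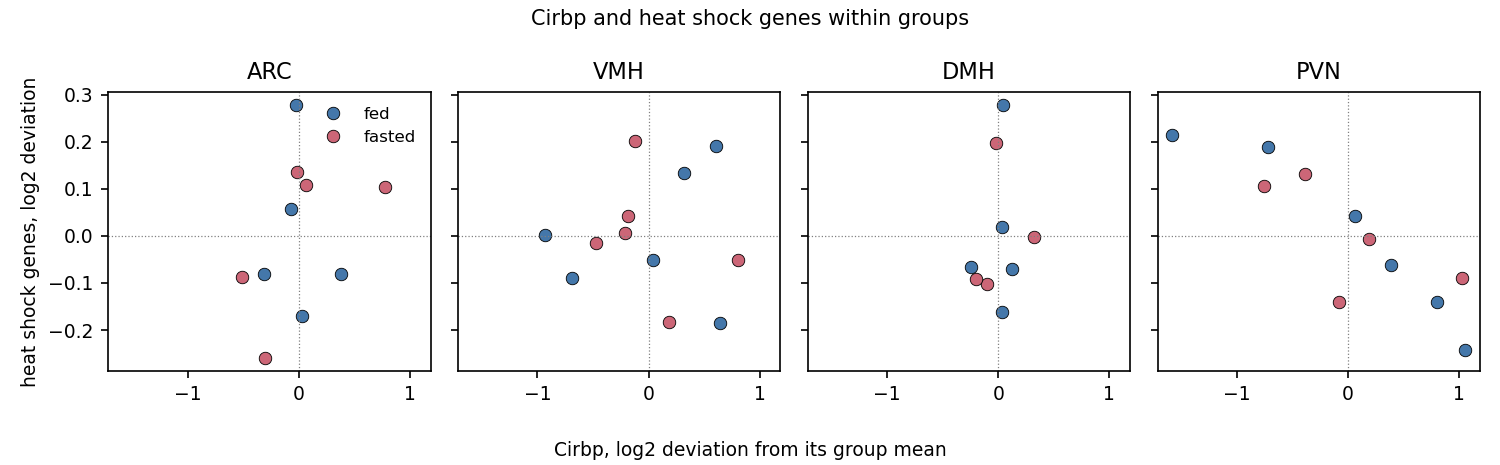
Deviation of Cirbp from its group mean (x axis, log2 units) against the deviation of the mean of the 22 heat shock and chaperone genes (y axis, log2 units), 1 point a library, in each nucleus. The 11 PVN points fall from upper left to lower right (r = -0.88), and in the other nuclei r lies between 0.00 and 0.35.

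Of the regulators and targets of the 2 genes, 17 of 19 were tested. Tlr4 was below the filter, and Prmt1 was not analysed here. Clk1, a kinase of splicing factors whose activity is known to rise as temperature falls, rose in the VMH by 0.42 log2 units (limma, adjusted p = 0.0249, and 0.444 with the VMH fitted alone) and on average by 0.23 (adjusted p = 0.00198). It stood at 20.2 to 25.3 RPKM in fed and 26.4 to 35.0 RPKM in fasted VMH libraries, with no overlap. In the VMH, 0.131% of genes had every fasted library above every fed one. The share of genes that rose past the threshold was 0.0715% in the VMH and 0.214% on average. If the nuclei were fully dependent, the average call of Clk1 would be lost. In the ARC, DMH and PVN its difference was 0.15, 0.11 and 0.25 and did not pass the threshold.

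The other 16 tested genes of this list did not pass in any nucleus or on average. They included Clk4, a related kinase (0.13 on average), Hnrnph1, a splicing regulator of Rbm3 (0.00), and Sp1, which binds the mild-cold response element (-0.18). Clock, a circadian factor whose transcript CIRBP binds, was at -0.17. In the synaptic pathway tied to Rbm3, the averages were 0.02 for the neurotrophin receptor Ntrk2, 0.08 for its ligand Bdnf, 0.03 for the phospholipase Plcg1, -0.15 for the transcription factor Creb1 and 0.06 for the reticulon Rtn3. Creb1, the lowest of them in the DMH and PVN, and Csnk2a1 (-0.17), the lowest in the VMH, did not pass either.

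Of 23 RNA-binding relatives and partners, 11 had a positive and 12 a negative average difference, with a median of -0.02. In single nuclei 0 of 23 passed the threshold. On average 2 fell and 0 rose, where 0.286% of all genes fell and 0.214% rose. The count that fell was 1 to 3 with a library left out, and 0 if the nuclei were fully dependent. With fasted ARC replicate 1 or fasted PVN replicate 5 left out, the count that rose was 1. Hnrnpc, which packages nascent transcripts, fell by 0.43 log2 units (limma, adjusted p = 8.90e-05), and Hnrnpa2b1, a related nuclear protein, fell by 0.20 (adjusted p = 0.0657, and 0.103 with a batch term; the call was lost in 11 of 42 fits without a library). The averages of Rbmx, Pabpc1 and Taf15, each the highest of the list in a nucleus, were 0.12, 0.09 and 0.08 and did not pass. The stress granule genes G3bp1 (-0.28) and G3bp2 (-0.18) did not pass.

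**Figure D5:**
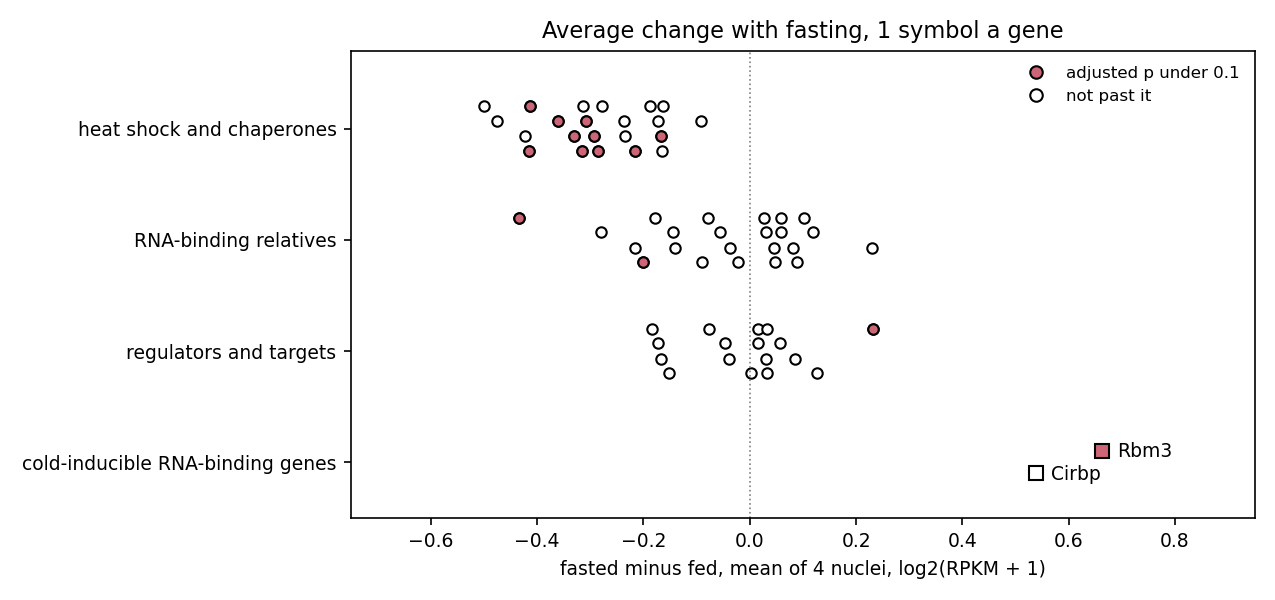
Average fasted minus fed difference over the 4 nuclei, in log2(RPKM + 1), of each gene in the 3 lists (circles) and of Rbm3 and Cirbp (squares). Filled symbols have an adjusted p under 0.1; all 22 heat shock genes lie below 0, and Rbm3 (0.66) and Cirbp (0.54) lie above every gene of the lists.

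Few markers of other cell types passed the threshold with fasting. Of 40 markers of neurons, astrocytes, oligodendrocytes, microglia, endothelial cells, tanycytes and blood, 0 rose and 1 fell on average, and the medians of the 7 lists lay between -0.12 and 0.01 log2 units. The gene that fell was Aqp4, the water channel of astrocytes, at -0.59 (limma, adjusted p = 0.00131), with -0.94 in the VMH (adjusted p = 0.0477). Of all genes, 0.286% fell on average and 0.0596% in the VMH. The VMH call of Aqp4 was lost without fed VMH replicate 1 and with the VMH fitted alone (limma, adjusted p = 0.114 and 0.369). Its average call would be lost if the nuclei were fully dependent. Mag, of oligodendrocytes, was at -0.72 on average and did not pass (limma, adjusted p = 0.263). The summed level of all 7 astrocyte markers in the PVN was 356.1 to 437.8 RPKM in fed and 347.1 to 450.8 RPKM in fasted libraries. In the DMH it was 407.3 to 517.3 RPKM in fed and 484.7 to 552.5 RPKM in fasted libraries. The fed and fasted ranges were 456.3 to 681.7 and 444.6 to 528.4 RPKM in the VMH. They were 359.7 to 412.2 and 355.4 to 426.6 RPKM in the ARC. Aldoc (mean 208 RPKM over all libraries) and Slc1a2 (132) weigh most in this sum, and Aqp4 (17.1) weighs little. The part of cell composition in the Rbm3 difference was not tested.

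The genes whose levels followed each member most closely, over 42 libraries with group means removed, were different for the 2 genes. For Cirbp they were Rictor (r = 0.69), Lrrcc1 (0.66), Aqr (0.63), Lancl1 (0.60) and Mosmo (0.60). For Rbm3 they were Gm23600 (0.67), Slc27a1 (0.61), Ift27 (0.60), Slc39a1 (0.59) and Tmed8 (0.57). These are the highest of 13751 genes compared, the libraries share batches and vary in depth, and they are given as a description.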

How the data were processed

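RNA-seq was done on 42 laser-captured nuclei. Per the labels, RNA was amplified with the NuGEN Ovation system, and the submitters' processing notes name CASAVA 1.7, TopHat2 2.0.11, Cufflinks 2.2.1, edgeR and limma, with build GRCm38. According to the study's methods, reads were single-end, outlier libraries had been removed, and capture and library preparation ran in 3 batches. The authors deposited RPKM values per Ensembl gene. No value was 0. For 21975 genes, several libraries shared the same lowest value, and this sharing split the libraries into 3 sets of 10, 16 and 16, called batches here. This value was read as no reads plus a count added by the authors, a mean of 5 reads (1.46 to 14.5, in proportion to depth), above which 97.7% to 98.7% of low values lay a whole number of reads away (tolerance 0.05). No-read values matched exon length within 1% for 75.5% of 20451 genes, which gave the depths; these are estimates. Batch means of log2 RPKM were equal in the table (largest gap for the median gene 5.9e-08), which lets the fit count more freedom than the data hold.

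Values were transformed to log2(RPKM + 1), which understates the change of low genes. Genes at 1 RPKM or more in at least 4 libraries (33579) were fitted with limma 3.58.1 (R 4.3.3) with a mean for each of 8 groups and an intensity trend, since RPKM are not counts. Tests were two-sided, adjusted by Benjamini-Hochberg over all genes, and called at an adjusted p under 0.1. Permutation tests used scipy 1.17.1 and were held to 0.05. Symbols and positions came from GENCODE M21, which matched 36049 IDs, and promoters from RefSeq. The nuclei share mice that the labels do not identify. Libraries of the same replicate number did not deviate together. This check cannot show which libraries share a mouse, since some libraries of the same number lie in different batches. The fit, the batch recovery and the permutation test were tested on simulated data. Genes were named from 3 lists where called in a contrast, or where largest in either direction in a nucleus with a mean of at least 5 RPKM, and by likeness to the members; other list genes are named for their role, chosen after their values were seen. A result that the naming rule would give is not reported here. Members and lists were chosen with earlier results of these data known. Alternatives covered the pseudocount, filter, scaling, library weights, depth, replicate block, single nuclei, batches, a batch term and each library left out.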

Additional observations from a re-analysis of the deposited data

Results flagged for a closer look

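A single library lay far from the others of its group in 2 of 16 groups tested, 8 for each gene, where chance alone would give 0.8. Rbm3 in fed VMH replicate 6 was at 5.008 RPKM, against 8.865 to 10.81 RPKM in the other 5 fed VMH libraries. An estimated 34.6 reads lay behind it, the fewest of any Rbm3 value, and the part of depth was not tested. Without it, the Rbm3 difference with fasting in the VMH was 0.24 log2 units in place of 0.37, and the adjusted p over fed nuclei was 0.0754 in place of 0.285 (limma). Cirbp in fed DMH replicate 4 was at 14.87 RPKM, against 18.34 to 19.6 RPKM in the other 4 fed DMH libraries.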

How the results depend on the processing

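The average rise of Rbm3 kept its sign in all 53 alternatives and its call in 51 of them, the exceptions being the batches taken alone, at 0.421 in batch 2 and 0.826 in batch 3. It also lost its call at an unchanged 0.663 if the nuclei were fully dependent (adjusted p = 1), a bound added after seeing the data. A batch term, also added then, changed no call of Cirbp or Rbm3. Cirbp on average stayed positive and short of the threshold in all 53. Cirbp was negative in the VMH within batch 2 (-0.0233, SE 0.73) and in the PVN within batch 3 (-0.0761, SE 0.34). Both values were smaller than their SEs, and the cause was not tested. Rbm3 in the PVN passed the threshold with library weights (0.781, adjusted p = 0.0435) and ranged from 0.679 to 0.90 with a library left out. With a library left out, the adjusted p of Rbm3 over fed nuclei ranged from 0.0754 to 0.461. The permutation difference of Rbm3 ranged from 0.583 to 0.849 in the ARC and 0.687 to 0.894 in the DMH, where most smaller groups could not or did not pass 0.05, the level for permutation tests, after adjustment (0.0571 to 0.0823 where lost). It ranged from 0.237 to 0.486 in the VMH, where it passed without fasted replicate 2, its lowest library (adjusted p = 0.0317). The count of genes called, 19, 44, 8 and 24 in the ARC, VMH, DMH and PVN, was less stable. It was 40, 16, 56 and 141 with library weights and 0, 1, 0 and 3 when each nucleus was fitted alone, where a smaller sample sets the spread. In the ARC it was 8 with a pseudocount of 0.1 and with none, and in the DMH 5 with a filter at 5 RPKM and 4 with a median shift. With a library left out it ranged from 6 to 31, 16 to 64, 6 to 89 and 11 to 48. With a replicate block the VMH count was 17 and no call of Cirbp or Rbm3 changed, but libraries of the same number did not deviate together (correlations of -0.103 to 0.0587 between fed and fasted, 0 of 20 over 0.1). No average over nuclei could be computed within batch 1, which has no fasted DMH library.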
